A study of Mus musculus with 5 samples.

Results

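Regulatory T cells (Treg) were chosen by measured transcripts in single-cell RNA sequencing of mouse blood mononuclear cells: the unique molecular identifiers (UMIs, each marking 1 captured transcript) of 12 genes. A barcode had to have at least 200 detected genes and under 10% of its UMIs from mitochondrial genes. It had to hold at least 1 UMI of Foxp3 (ENSMUSG00000039521), at least 1 UMI of the T-cell genes Cd3e, Cd3d and Trac together, no UMI of Cd8b1, Cd79a or Lyz2, and at least 1 of 5 companion genes, Ikzf2, Il2ra, Ctla4, Tnfrsf18 and Izumo1r. These rules gave 338 cells of 62,028 filtered cells in 5 libraries, a share of 0.545%. The cells were set against 3405 Foxp3-negative CD4 T cells of the same libraries, which passed the same filters with at least 1 UMI of Cd4 and none of Foxp3, Cd8a, Cd8b1, Cd79a or Lyz2.

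All animals were C57BL/6N mice, and their ages are not in the sources used here. One group was fed a high-fat diet for 15 weeks while L-NAME blocked its nitric oxide synthases, and was given nitro-oleic acid (NO2-OA), an electrophilic nitrated fatty acid, over the last 4 weeks (HFD + L-NAME + NO2-OA, 1 library). Another had diet and L-NAME alone (HFD + L-NAME, 2 libraries), and the controls ate regular chow (chow, 2 libraries). Diet plus L-NAME models heart failure in which ejection fraction is preserved, and the comparisons ask how it and NO2-OA go with the state of blood cells. Whether a library stands for 1 animal is not in the labels, and the p-values speak only of how libraries vary. By file name the libraries form sets matching the replicate number, with NO2-OA in that of replicate 1 alone, so values are also given within replicates.

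Treg hold other lymphocytes in check. Foxp3, their master transcription factor, is kept on together with the transcription factor Helios (Ikzf2), the high-affinity interleukin-2 receptor chain CD25 (Il2ra), the inhibitory receptor CTLA-4 (Ctla4), the receptor GITR (Tnfrsf18) and the folate receptor family protein FR4 (Izumo1r). Treg make little interleukin-2 and carry little of the interleukin-7 receptor, and live on interleukin-2 made by other T cells. In blood they range from resting cells, which recirculate through lymph nodes, to effector cells, which have met antigen and carry integrins and chemokine receptors for tissues.

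The libraries held 8488 to 17,997 barcodes each. Treg summed to 929,581 UMIs in the NO2-OA library, 298,213 and 178,120 in HFD + L-NAME 1 and 2, and 537,305 and 542,373 in the chow libraries. The median Treg had 6075 UMIs in the NO2-OA library, 6569 and 9267 in HFD + L-NAME 1 and 2, and 6333 and 6133 in the chow libraries. Pairs of libraries shared 28 to 77 barcode sequences, and none of these was a Treg in both. Of the 338 Treg, 10 were marked as doublets and were kept. Genes of other lineages were detected: 122 of 131 Treg of the NO2-OA library, 34 of 41 and 17 of 17 of HFD + L-NAME 1 and 2, and 63 of 74 and 49 of 75 of the chow libraries held a UMI of at least 1 of 10 genes of B cells, granulocytes, platelets, red cells, monocytes or CD8 T cells. Summed red-cell markers reached 6381 CPM (the counts-per-million scale, a gene's share of all UMIs summed over cells of 1 kind in a library) in Treg of the NO2-OA library, 285 and 13,401 in HFD + L-NAME 1 and 2, and 7889 and 88.5 in the chow libraries. Because the rules allowed no UMI of Cd79a or Lyz2, 20.6% of otherwise passing Foxp3-positive barcodes were lost in the NO2-OA library, 36.9% and 50.0% in HFD + L-NAME 1 and 2, and 33.9% and 34.8% in the chow libraries.

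The genes of the rule describe how clear-cut these cells were, and no test applies to them. Of the 338 Treg, 176 held 1 Foxp3 UMI, 98 held 2 and 64 held more, up to 8. An Ikzf2 UMI was found in 78.7% of Treg, Ctla4 in 88.2%, Izumo1r in 49.4%, Tnfrsf18 in 47.6% and Il2ra in 46.7%. A Foxp3 UMI was also found in 0.375% of B cells, 0.559% of CD8 T cells and 0.315% of monocytes, with no companion gene asked for. Their median depths were 5366 to 7915, 7469 to 11,284 and 8247 to 16,422 UMIs in the 5 libraries. Treg were 0.545% of filtered cells, and 1693 of the 3405 Foxp3-negative CD4 T cells held no companion gene. The part of such background among Treg with 1 Foxp3 UMI was not tested.

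Foxp3 stood at 258 CPM in Treg of the NO2-OA library, 251 and 225 CPM in HFD + L-NAME 1 and 2, and 235 and 286 CPM in the chow libraries. Ikzf2 stood at 969 CPM with NO2-OA, 1502 and 1813 CPM in HFD + L-NAME, and 1280.5 and 1206 CPM in chow. Ctla4 stood at 992 CPM with NO2-OA, 1516 and 1308 CPM in HFD + L-NAME, and 782 and 1254 CPM in chow. These are genes of the rule and HFD + L-NAME 2 held 17 Treg, so no difference between groups is drawn from their levels. The log2 ratios of HFD + L-NAME over chow within replicates 1 and 2 were 0.10 and -0.35 for Foxp3. They were 0.23 and 0.59 for Ikzf2, and 0.95 and 0.06 for Ctla4. For the other companion genes they were 1.07 and 0.47 for Tnfrsf18, 0.23 and -0.68 for Il2ra, and 0.67 and -0.27 for Izumo1r.

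Values just inside and just outside the rule are given, without a test, for genes that the rule did not use. In the 25 Treg with 1 Foxp3 UMI and 1 companion gene, Nrp1, a co-receptor enriched on thymus-derived Treg, stood at 86.8 CPM and the resting T-cell gene Dapl1 at 118 CPM, against 177 and 17.3 CPM in all Treg. In the 15 Foxp3-positive barcodes just outside, which held no companion gene, Nrp1, Lrrc32, Capg and Tnfrsf4 had no UMI and Dapl1 stood at 105 CPM. In the 272 Foxp3-negative CD4 T cells with 3 or more companion genes, Nrp1 stood at 111 CPM, Dapl1 at 25.0 CPM, Capg at 36.6 CPM and Lrrc32, which holds latent TGF-beta at the cell surface, at 10.3 CPM. All Treg had 177, 17.3, 97.0 and 39.8 CPM of these genes in that order, and all Foxp3-negative CD4 T cells had 29.1, 76.9, 14.9 and 1.68 CPM. These 272 cells stayed in the compared group.

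As counted, Treg were a smaller share of all filtered cells in both HFD + L-NAME libraries than in both chow libraries, but not of CD4-type T cells, and with 2 libraries in each group neither difference could reach p under 0.05. Of filtered cells they made up 0.904% in the NO2-OA library (exact 95% binomial interval 0.757 to 1.07%). They made up 0.344% and 0.221% in the HFD + L-NAME libraries (0.247 to 0.466% and 0.129 to 0.354%) and 0.429% and 0.702% in the chow libraries (0.337 to 0.538% and 0.552 to 0.879%). The log2 ratio of HFD + L-NAME over chow was -0.99, with -0.32 in replicate 1 and -1.67 in replicate 2 (exact two-sided permutation p = 0.333, the smallest that 2 against 2 libraries can give). With each cell thinned to 3000 UMIs before the rules were applied, Treg made up 0.661% of filtered cells with NO2-OA, 0.291% and 0.155% in HFD + L-NAME, and 0.222% and 0.561% in chow, so the groups overlapped and HFD + L-NAME 1 lay above chow 1 (exact permutation p = 0.667). Of CD4-type T cells, meaning Treg plus Foxp3-negative CD4 T cells, Treg made up 9.51% in the NO2-OA library, 6.66% and 13.0% in HFD + L-NAME 1 and 2, and 7.36% and 12.2% in the chow libraries. Here the log2 ratio was -0.03, with -0.14 and 0.08 within replicates (exact permutation p = 1), and both libraries of replicate 2 lay above the 3 of replicate 1. Treg needed no Cd4 UMI while every Foxp3-negative cell counted here did, so missed Cd4 raises this share. Without that demand, Foxp3-negative cells numbered 3584 in place of 1246 with NO2-OA. They numbered 1407 and 222 in place of 575 and 114 in HFD + L-NAME, and 2948 and 960 in place of 932 and 538 in chow. The share was not computed on those cells. Of T cells, Treg made up 2.54% with NO2-OA, 1.84% and 4.19% in HFD + L-NAME, and 1.57% and 4.13% in chow, a log2 ratio of 0.12 (exact permutation p = 0.667). The share lost to the Lyz2 and Cd79a rules was largest in the same HFD + L-NAME library that had the lowest share of filtered cells. With up to 1 UMI each of Cd79a and Lyz2 allowed, Treg made up 0.980% of filtered cells with NO2-OA. They made up 0.411% and 0.351% in HFD + L-NAME 1 and 2, and 0.522% and 0.889% in chow. Both HFD + L-NAME libraries then still lay under both chow libraries, and the part of the 2 rules in the shares was not tested further. Intervals cover counting error only.

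**Figure D1:**
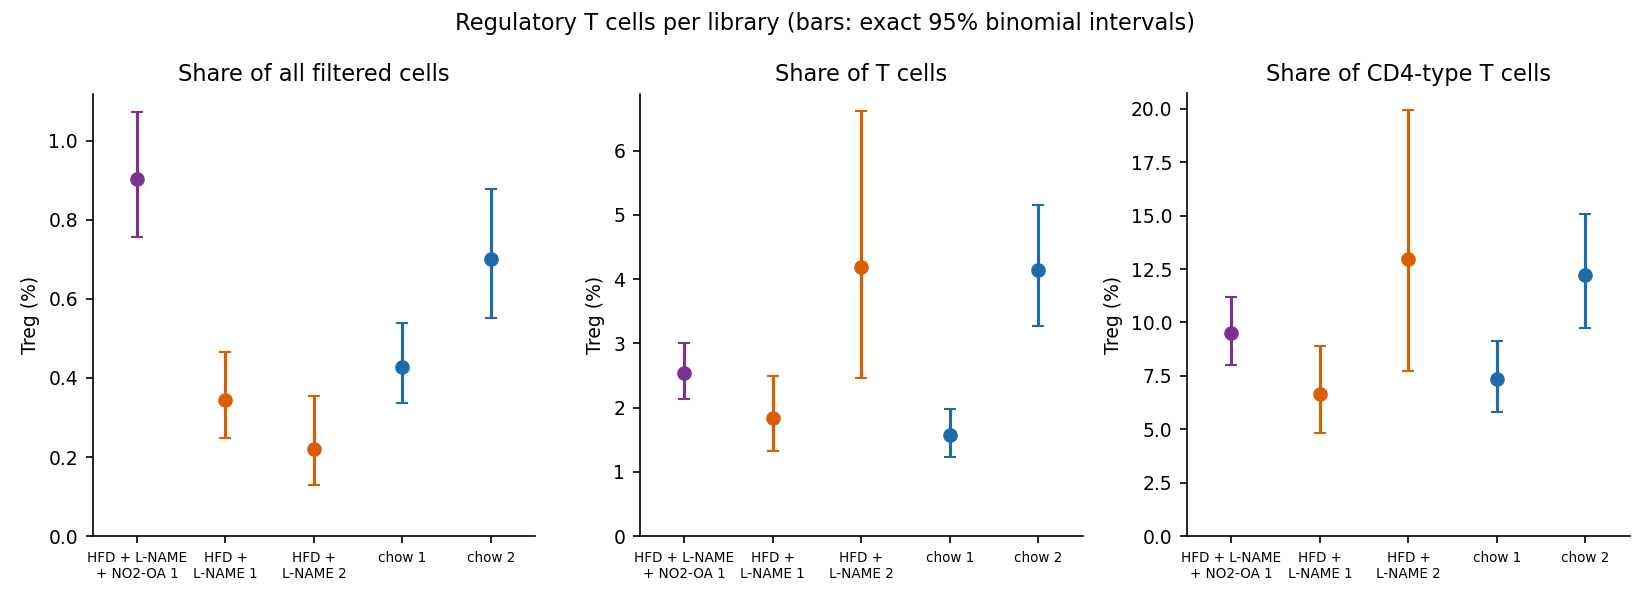
Share of Treg among all filtered cells, T cells and CD4-type T cells (%) in each library, with exact 95% binomial intervals. Of filtered cells the NO2-OA library has 0.904%, both HFD + L-NAME libraries lie under both chow libraries (not so after thinning to 3000 UMIs), and of CD4-type T cells both libraries of replicate 2 lie above the others.

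The next comparison asks which genes outside the rule set Treg apart from Foxp3-negative CD4 T cells of the same libraries. Itgae, Itgav, S100a10, S100a6 and Nrp1 were among the genes higher in Treg, and Bcl2, Tcf7, Il7r and Lef1 among those lower. In edgeR's quasi-likelihood test with the library as a block, 802 genes were higher and 634 lower in Treg at an adjusted p under 0.05, of 7745 genes tested (18.5%, with 10.4% higher and 8.19% lower). The 14 genes that define either kind of cell were left out of the test. The median log2 fold change over all genes was -0.02.

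Among adhesion genes, Itgae, the integrin alpha-E chain that binds E-cadherin on epithelium, stood at 71.0 CPM in Treg of the NO2-OA library, 67.1 and 146 CPM in HFD + L-NAME 1 and 2, and 138 and 62.7 CPM in the chow libraries. In Foxp3-negative CD4 T cells Itgae stood at 2.51 CPM with NO2-OA, 6.75 and 6.04 CPM in HFD + L-NAME, and 9.24 and 4.61 CPM in chow. The lowest Treg library thus lay far above the highest library of the compared cells (log2 fold change 3.98 ± 0.23 SE, edgeR adjusted p = 1.75e-10). Itgav, the integrin alpha-V chain whose partner chains free active TGF-beta, stood at 541 CPM in Treg with NO2-OA, 466 and 539 CPM in HFD + L-NAME, and 566 and 391 CPM in chow, against 71.8 to 97.8 CPM in the compared cells (2.52 ± 0.11, edgeR adjusted p = 7.30e-12). Lamc1, a laminin chain of basement membranes, was higher by 3.59 ± 0.18 on the log2 scale (edgeR adjusted p = 3.41e-11).

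The cytoskeletal and calcium-binding genes S100a10, S100a6 and Crip1, which mark antigen-experienced T cells, were higher in Treg by 1.99 ± 0.09, 2.68 ± 0.12 and 1.62 ± 0.08 (log2, edgeR adjusted p from 7.30e-12 to 2.76e-11). S100a6 stood at 986 CPM in Treg with NO2-OA, 932 and 1302 CPM in HFD + L-NAME, and 791 and 824 CPM in chow, and at 76.2 to 182 CPM in the compared cells. Lgals1, a galectin used in suppression, Rgs1, a brake on chemokine receptor signalling, and Nrp1 were higher by 2.38 ± 0.13, 1.90 ± 0.11 and 2.53 ± 0.14. The remaining genes named by rank were Ifi27l2a (1.80 ± 0.09), an interferon-induced gene, Ankrd55 (3.23 ± 0.18) and Sh3rf1 (2.46 ± 0.14), a scaffold of JNK signalling.

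On the lower side, Bcl2, which guards cells from death, stood at 242 CPM in Treg with NO2-OA, 255 and 152 CPM in HFD + L-NAME, and 350 and 430 CPM in chow. Foxp3-negative CD4 T cells had 829 CPM with NO2-OA, 649 and 829 CPM in HFD + L-NAME, and 1132 and 1076 CPM in chow, with no overlap (-1.71 ± 0.12, edgeR adjusted p = 1.47e-09). Il7r, the interleukin-7 receptor chain whose low level is used to sort Treg, fell by 1.20 ± 0.09, and Tcf7, the transcription factor TCF-1 of resting T cells, fell by 1.45 ± 0.11 (edgeR adjusted p = 9.72e-09 and 9.14e-09). Igfbp4, a secreted binding protein of insulin-like growth factors found in naive CD4 T cells, was lower by a log2 fold change of -2.75 ± 0.22. The others named by rank were Maml2, a Notch co-activator (-1.59 ± 0.11), Atp8b4 (-3.26 ± 0.25) and Atp10a (-1.62 ± 0.16), which are phospholipid flippase genes, and Tgfbr3, the TGF-beta co-receptor betaglycan (-2.43 ± 0.22). Ppm1h (-1.31 ± 0.11), a phosphatase, Heatr5a (-1.72 ± 0.16), Rapgef4 (-1.91 ± 0.18), a cyclic AMP sensor, and Kif1b (-1.29 ± 0.12), a transport motor, completed them.

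**Figure D2:**
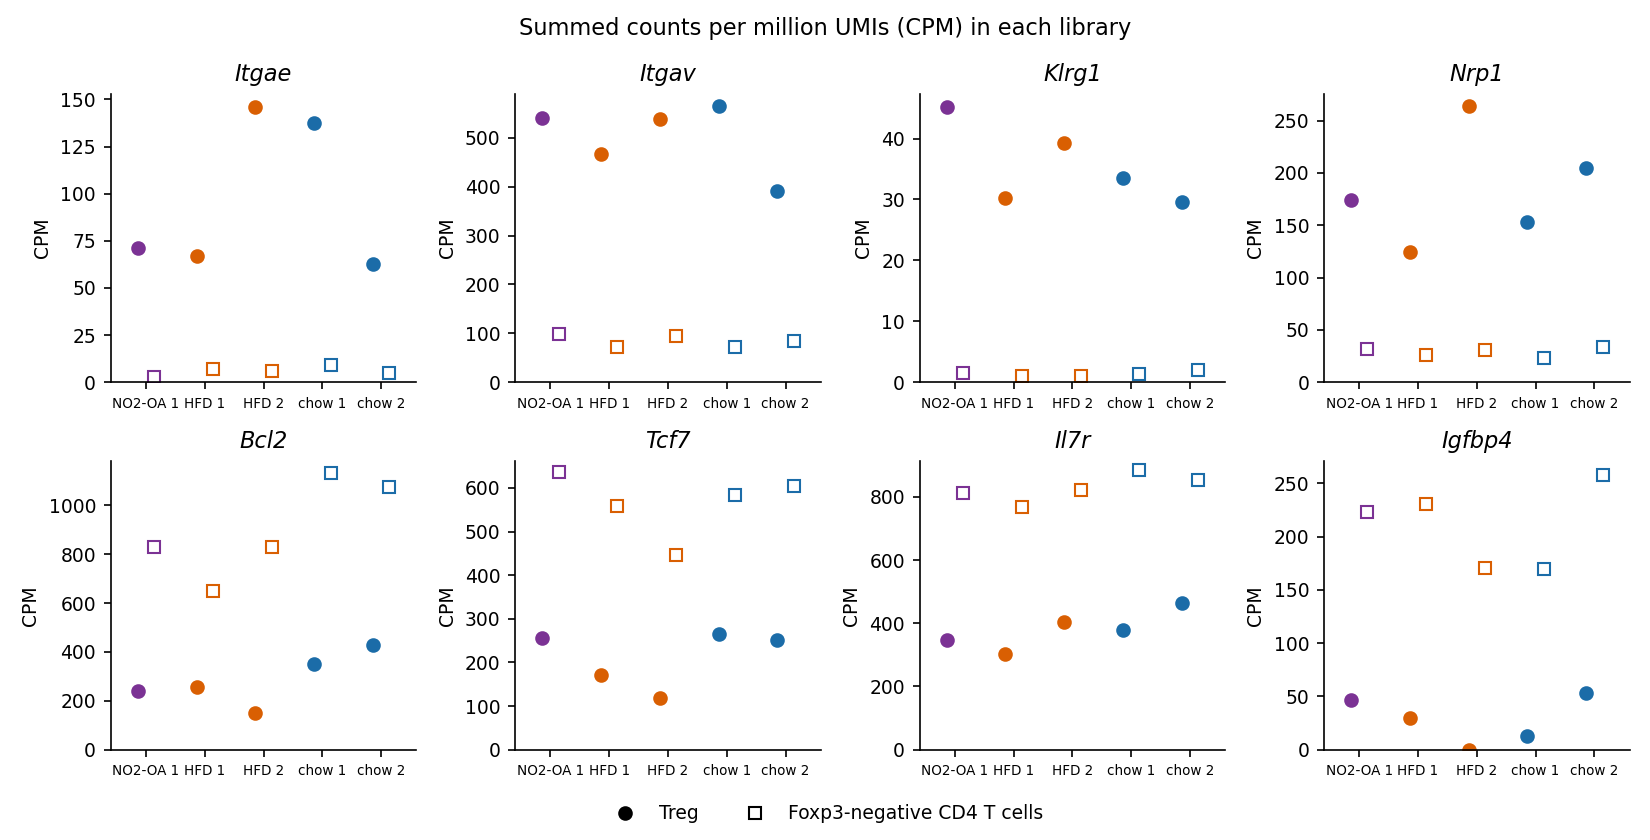
Summed level (CPM) in each library for 4 genes higher and 4 genes lower in Treg (filled circles) than in Foxp3-negative CD4 T cells (open squares); NO2-OA 1, HFD 1 and 2 and chow 1 and 2 are the libraries. For each of the 8 genes the circles and squares do not overlap, as for Itgae with at least 62.7 CPM in Treg and at most 9.24 CPM in the compared cells.

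Of 30 genes listed as a Treg signature outside the rule, 22 passed the low-count filter and 8 did not. Over all genes tested, 10.4% were higher and 8.19% lower. Among the 22 measured signature genes, 20 were higher, none lower, and the median log2 fold change was 2.10. A gene can pass that filter through its level in 1 cell kind alone, so this count, and those of the lists that follow, describe the measured members and are not evidence on a list. Tnfrsf9, the co-stimulatory receptor 4-1BB, was higher by 3.23 ± 0.26, Capg, an actin-capping protein, by 2.59 ± 0.17, and Hopx, which supports induced Treg, by 2.51 ± 0.19 (edgeR adjusted p from 1.22e-09 to 1.84e-08). Tnfrsf9 stood at 42.0 CPM in Treg with NO2-OA, 111 and 112 CPM in HFD + L-NAME, and 35.4 and 47.9 CPM in chow, against 3.07 to 8.64 CPM in Foxp3-negative CD4 T cells. The signature genes that passed the test were all higher in the cells the rule had chosen.

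Of 20 genes listed for conventional CD4 T cells, 19 were tested, 16 were lower, none was higher, and the median was -1.52. Besides Bcl2, Tcf7, Il7r and Igfbp4, Tdrp fell by 2.12 ± 0.21 and Actn1, the cytoskeletal protein actinin, by 1.62 ± 0.16 (edgeR adjusted p = 4.12e-07 and 6.92e-07). Actn1 stood at 112 CPM in Treg with NO2-OA, 80.5 and 22.5 CPM in HFD + L-NAME, and 115 and 73.8 CPM in chow, against 216 to 352 CPM in the compared cells. Of 16 resting-lymphocyte genes, 11 were lower and 1 was higher (median -0.57): Lef1 (-1.52 ± 0.15), Satb1 (-0.81 ± 0.09) and Txnip (-0.84 ± 0.11) fell, while Cd27, a co-stimulatory receptor of the same list, was higher by 1.03 ± 0.14.

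Of 30 effector Treg genes, 22 were tested and 17 were higher, with none lower (median 1.60). Klrg1, a receptor of terminally differentiated Treg, stood at 45.2 CPM in Treg with NO2-OA, 30.2 and 39.3 CPM in HFD + L-NAME, and 33.5 and 29.5 CPM in chow, against 1.01 to 2.05 CPM in Foxp3-negative CD4 T cells (4.52 ± 0.33, edgeR adjusted p = 5.70e-09). Glrx, a glutaredoxin, and S100a11 were higher by 2.40 ± 0.22 and 1.85 ± 0.13. Of 20 suppressive genes, 11 were tested and 8 were higher (median 1.37), among them Itgb8, the integrin chain that activates TGF-beta (3.43 ± 0.34), Areg, the tissue-repair growth factor amphiregulin (2.54 ± 0.29), Nt5e, which makes adenosine (1.33 ± 0.12), and Adora2a, an adenosine receptor (1.35 ± 0.25). Areg stood at 31.2 CPM in Treg with NO2-OA, 97.2 and 50.5 CPM in HFD + L-NAME, and 11.2 and 75.6 CPM in chow, so its Treg libraries varied widely within a group. Its compared cells had 3.71 CPM with NO2-OA, 7.56 and 8.05 CPM in HFD + L-NAME, and 3.02 and 22.5 CPM in chow.

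Homing receptors moved in both directions. Of 23 listed, 17 were tested, 6 were higher and 2 lower (median 0.30), beside 10.4% higher and 8.19% lower over all genes tested. Ccr2, a receptor for inflammatory chemokines, was higher by 2.50 ± 0.21, Ccr4, which guides Treg to skin, by 2.61 ± 0.33, and Cxcr3, which guides cells to interferon-rich tissue, by 1.16 ± 0.29 (edgeR adjusted p from 4.37e-08 to 0.00692). Ccr2 stood at 100.0 CPM in Treg with NO2-OA, 73.8 and 84.2 CPM in HFD + L-NAME, and 42.8 and 25.8 CPM in chow. In the compared cells it was 6.66 to 18.1 CPM. The log2 ratios of HFD + L-NAME over chow within replicates 1 and 2 were 0.77 and 1.67 in Treg and 0.76 and 1.32 in the compared cells. Ccr2 was not among the genes called between HFD + L-NAME and chow in Treg, as given below. Ccr2 is also 1 of 8 listed monocyte markers, whose sum was 111 CPM in Treg with NO2-OA, 144 and 95.4 CPM in HFD + L-NAME, and 42.8 and 38.7 CPM in chow. Of these 8, 4 had a UMI with NO2-OA, 4 and 2 in HFD + L-NAME, and 1 and 5 in chow, with Lyz2 at 0 by the rule and Csf1r at 0 in all but chow 2. Ly6c2, another of them, stood at 5.38 CPM with NO2-OA, 60.4 and 0 CPM in HFD + L-NAME, and 0 and 1.84 CPM in chow. The part of monocyte RNA in the level of Ccr2 was not tested. Itgb7 and Cxcr4 were higher by 0.92 ± 0.11 and 0.58 ± 0.13, and Itga4 was lower by a log2 fold change of -0.61 ± 0.12.

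Interleukin-2 signalling genes moved in both directions. Of 18 listed, 16 were tested, 6 were higher and 4 lower (median 0.18), beside 10.4% higher and 8.19% lower over all genes tested. The receptor chain Il2rb (1.61 ± 0.15), the kinase Pim1 (0.89 ± 0.09), the feedback inhibitor Cish (1.52 ± 0.18) and the transcription factor Stat5a (0.60 ± 0.13) were higher, while Bcl2 and Il7r, which belong to this list too, were lower. Of 25 genes of T-cell receptor and immediate-early response, 23 were tested, 6 were higher and 2 lower (median -0.01). Nfkb1 (0.68 ± 0.08), Rel (0.55 ± 0.11), Nr4a1 (0.68 ± 0.13) and Cd5 (0.75 ± 0.12), genes kept on by receptor signals, were higher, and the immediate-early genes Jun (-0.51 ± 0.12) and Egr1 (-0.55 ± 0.15) lower.

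Of 42 interferon-stimulated genes, 36 were tested, 8 were higher and 4 lower (median 0.10), led by Gbp3 (2.00 ± 0.21), Ly6e (0.81 ± 0.09), Samhd1 (0.79 ± 0.11) and Gbp7 (1.02 ± 0.16), with Usp18, which dampens interferon signalling, lower (-1.64 ± 0.35). Of 22 targets of NRF2, the oxidant sensor that electrophilic fatty acids activate, 16 were tested, 5 were higher and 1 lower (median 0.25), with Tkt (0.93 ± 0.18), Sqstm1 (0.56 ± 0.12), Txn1 (0.48 ± 0.13), Prdx1 (0.33 ± 0.11) and Fth1 (0.22 ± 0.07) higher and Nfe2l2 itself lower (-0.50 ± 0.14). Of 26 lipid and PPAR genes, 15 were tested, 2 were higher and 2 lower (median -0.13). That is near the shares over all genes tested, 10.4% higher and 8.19% lower, which stand beside each list of this paragraph. Cpt1a (0.64 ± 0.20), the gate of mitochondrial fat burning, and Ucp2 (0.37 ± 0.11) were higher, and Abca1 (-1.02 ± 0.21) and Acadm (-0.87 ± 0.25) lower. Rora, Nfil3 and Bhlhe40 were higher by 1.71 ± 0.15, 1.49 ± 0.24 and 0.97 ± 0.17 among 10 tested of 20 circadian clock genes (median 0.16), and all of them are also in the effector Treg list. Mki67 (1.64 ± 0.41), Mcm6 (1.17 ± 0.22) and Hmgb2 (0.56 ± 0.10) were higher among 9 tested of 20 cell cycle genes (median 0.07).

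**Figure D3:**
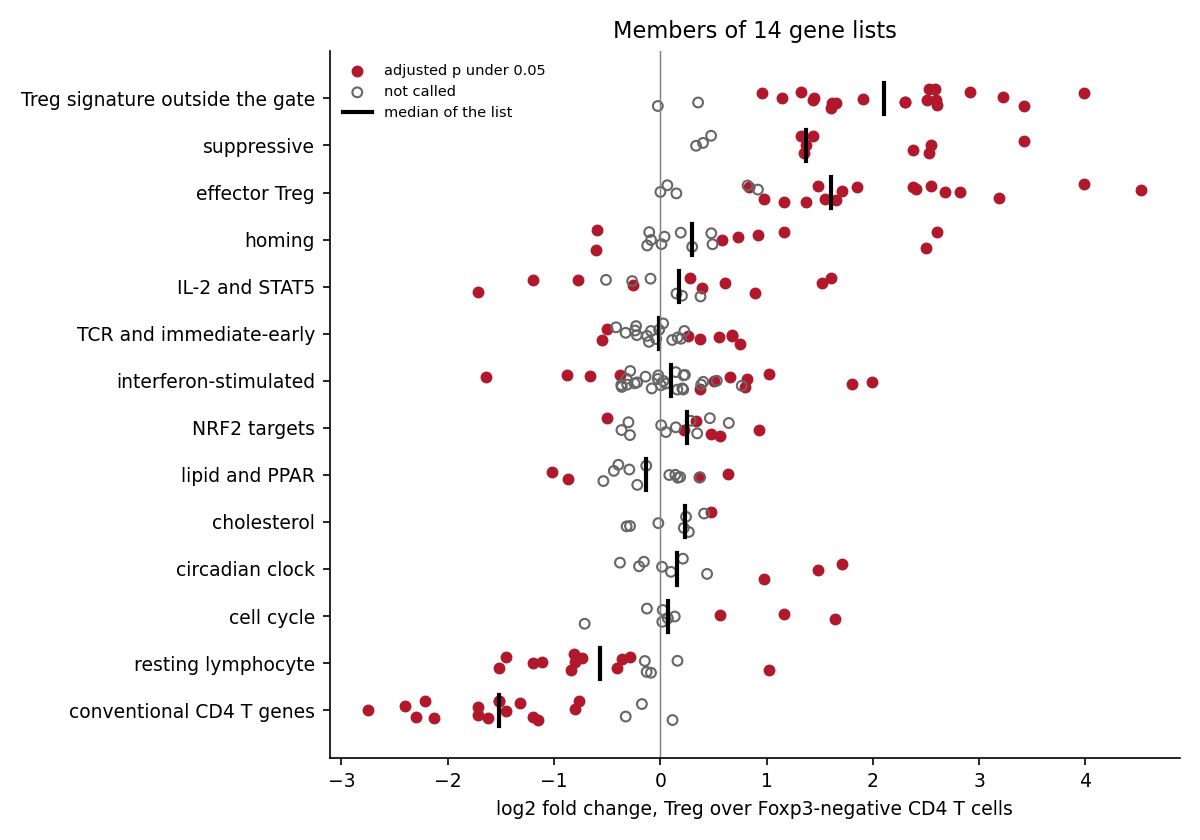
Log2 fold change of Treg over Foxp3-negative CD4 T cells for each tested member of 14 gene lists, filled where the edgeR adjusted p is under 0.05; the bar is the median of the tested members. The Treg signature, suppressive and effector lists have medians of 2.10, 1.37 and 1.60, and the resting and conventional lists of -0.57 and -1.52.

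These counts shifted with the compared cells. With Foxp3-negative cells matched 1 to 1 on UMIs, 422 genes were higher and 324 lower of 6086 tested. Without the library block, 428 were higher and 230 lower of 7745 tested. When cells with any UMI of the 10 genes of other lineages were left out, which left no Treg of HFD + L-NAME 2, 4683 genes could be tested, and 68 were higher and 51 lower. Of 1096 genes called before that could be tested there, 112 were called again in the same direction and 78 had the opposite sign. Against Foxp3-negative CD4 T cells that held an Icos UMI, a co-stimulatory receptor of activated T cells, 598 genes were higher and 471 lower of 6986 tested (15.3%, with 8.56% higher and 6.74% lower). Of 1378 genes called before that could be tested there, 1016 were called again in the same direction and 1 had the opposite sign. Among genes named above, Txn1, Prdx1, Fth1, Nfe2l2, Cpt1a, Ucp2, Mki67, Cxcr3 and Jun were not called there (edgeR adjusted p from 0.0515 to 0.292). Of 15 NRF2 targets tested there 2 were higher and 0 lower, and of 15 lipid and PPAR genes 0 were higher and 2 lower.

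Within Treg, cells with and without an Ikzf2 UMI were compared. Ikzf2 is a gene of the rule, and the genes of the rule were left out of the test. There were 100 and 31 such cells with NO2-OA, 35 and 6, and 14 and 3 in HFD + L-NAME 1 and 2, and 59 and 15, and 58 and 17 in the chow libraries. A cell without an Ikzf2 UMI may still express the gene, and it entered only through another companion gene, so the rule has a part in how the cells on each side were chosen. Treg with 1 Foxp3 UMI and 1 companion gene had 242 CPM of Igfbp4 and 118 CPM of Dapl1. All Treg had 35.4 and 17.3 CPM, and Foxp3-negative CD4 T cells had 214 and 76.9 CPM. The part of such cells at the edge of the rule in this comparison was not tested. With no companion gene asked for, 93 genes were higher and 80 lower of 3121 tested. Of 2895 genes tested in edgeR with the library as a block, 43 were higher and 38 lower in Ikzf2-detected Treg (2.80%, with 1.49% higher and 1.31% lower). Median UMIs were 6464 and 5334 with NO2-OA, 6582 and 5837, and 9456 and 9173 in HFD + L-NAME, and 6351 and 5912, and 6133 and 6306 in chow, in Ikzf2-detected and Ikzf2-undetected cells. With each cell thinned to 3000 UMIs after the split, 1296 genes could be tested, and 33 were higher and 27 lower. Without cells holding a UMI of the 10 genes of other lineages, 467 genes could be tested and none was called in edgeR; of 33 genes called before that could be tested there, 7 had the opposite sign.

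S100a10, Crip1, Sh3rf1, Ifi27l2a and Itgae were higher in Ikzf2-detected Treg and were also among the genes named as higher in Treg. The rule has a part in both comparisons, so this overlap is not separate evidence. Itgae was higher by 4.38 ± 0.69 (edgeR adjusted p = 6.73e-04), S100a10 by 2.24 ± 0.18 (edgeR adjusted p = 5.91e-08), Crip1 by 2.11 ± 0.21, S100a11 by 2.49 ± 0.30 and Vim, an intermediate filament, by 2.19 ± 0.30. Tox, a chromatin factor of antigen-experienced T cells, was higher by 1.47 ± 0.17, Itgb1, the integrin beta-1 chain, by 1.70 ± 0.30, and Hopx by 2.27 ± 0.37. Sh3rf1 (2.90 ± 0.39), Actg1 (1.25 ± 0.17), an actin, Ifi27l2a (1.62 ± 0.24) and Rab8b (1.49 ± 0.26), a vesicle GTPase, completed the genes named by rank. Of 30 effector genes, 15 were tested, 5 were higher and none lower (median 1.66), with Lgals1 (2.37 ± 0.39), Bhlhe40 (2.16 ± 0.47) and Rora (1.82 ± 0.35) beside S100a11 and Itgae. The median over all genes was 0.00.

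Genes of resting lymphocytes were among the lower ones in Ikzf2-detected Treg. Of 16 resting-lymphocyte genes, 15 were tested, 6 were lower and none higher (median -0.49). Bach2, a repressor that keeps T cells resting, was lower by a log2 fold change of -0.70 ± 0.14, Foxp1 by -0.88 ± 0.15, Satb1 by -1.44 ± 0.24, Ccr7, the lymph node homing receptor, by -1.31 ± 0.30, Lef1 by -0.95 ± 0.22 and Txnip by -1.18 ± 0.27 (edgeR adjusted p from 0.00162 to 0.0188). Without cells holding UMIs of other lineages, the log2 fold change was 0.05 for Bach2 and 0.12 for Lef1. Jun, a component of the AP-1 factor, was lower by -1.52 ± 0.26, Cblb, a ubiquitin ligase that restrains T-cell activation, by -0.76 ± 0.13, and Ikzf1, which encodes Ikaros, by -1.12 ± 0.20. Malat1 (-0.57 ± 0.08), a nuclear RNA, Abtb2 (-1.46 ± 0.24), Ube2h (-0.93 ± 0.17), Peli1 (-0.78 ± 0.15), Thada (-1.23 ± 0.23), Ugcg (-1.44 ± 0.28), Nufip2 (-1.13 ± 0.22) and St8sia1 (-1.76 ± 0.35) were the others named by rank. Without the NO2-OA library, which held the largest number of these cells, 16 genes were higher and 7 lower, and without chow 1 or chow 2 the totals were 48 and 44.

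**Figure D4:**
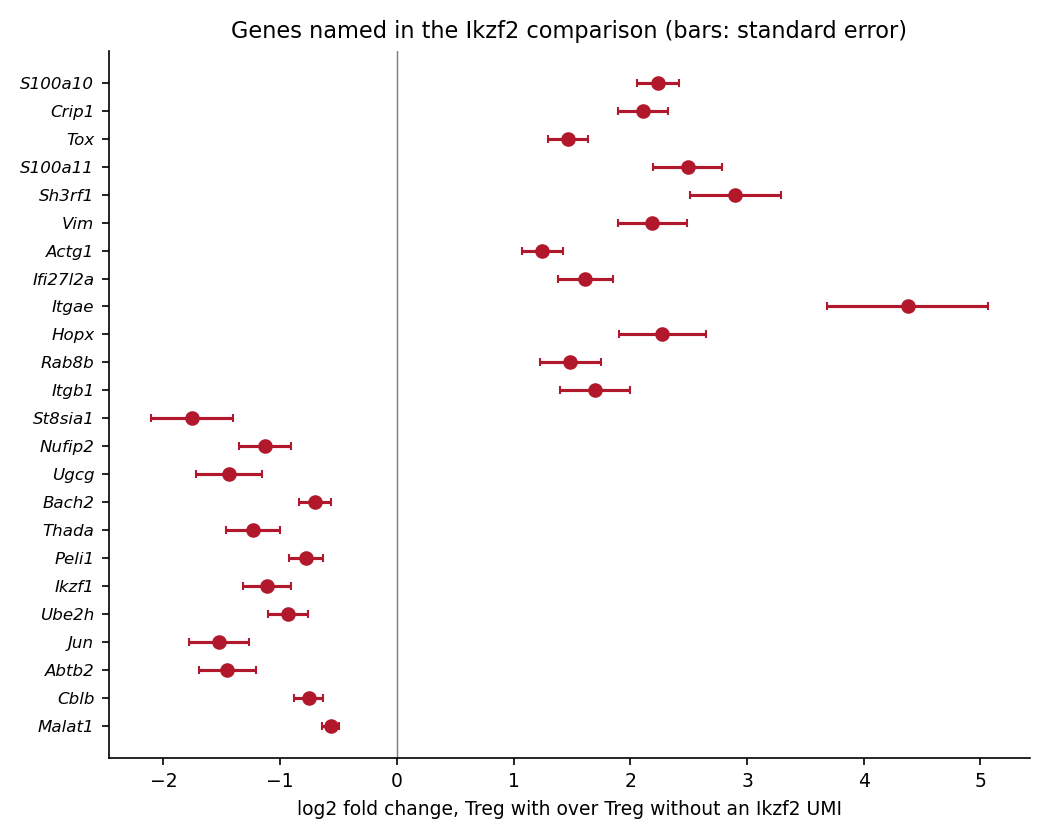
Log2 fold change with standard error for the 24 genes named in the comparison of Treg with and without an Ikzf2 UMI. Itgae has the widest error (4.38 ± 0.69), and the genes lower in Ikzf2-detected cells lie between -0.57 and -1.76.

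The share of Treg with a Cd44 UMI varied between libraries of 1 group. Cells were thinned to 3000 UMIs so that shares of cells with a UMI could be set side by side. Cd44, an adhesion receptor of antigen-experienced cells, was found in 34.7% with NO2-OA, 38.5% and 56.3% in HFD + L-NAME, and 50.7% and 20% in chow (unthinned 51.1%, 46.3% and 64.7%, and 62.2% and 34.7%). Chow 2 had the lowest share with Cd44 of the 5 libraries, and chow 1 lay among the libraries on the diet. HFD + L-NAME libraries gave 39 and 16 Treg to these shares, so each cell weighs heavily there.

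Setting HFD + L-NAME against chow in Treg asks which genes went with the regimen. In edgeR, 1 gene was higher and 2 were lower of 7557 tested (0.0397%, with 0.0132% higher and 0.0265% lower). Before adjustment 350 genes had p under 0.05, and DESeq2 called none, with 98 at that unadjusted level. Elovl6 (ENSMUSG00000041220), which lengthens saturated and monounsaturated fatty acids, stood at 275 and 78.6 CPM in Treg of the HFD + L-NAME libraries, against 31.6 and 14.8 CPM in the chow libraries, and at 262 CPM with NO2-OA. The 3 libraries on the diet did not overlap with chow (2.99 ± 0.48, edgeR adjusted p = 2.08e-04; 3.08 and 2.34 within replicates). With the replicate number as a block, fitted to the chow and HFD + L-NAME libraries alone, Elovl6 had a log2 fold change of 2.87 and no gene was called. An Elovl6 UMI was found in 67 of 131 Treg with NO2-OA, 20 of 41 and 4 of 17 in HFD + L-NAME, and 11 of 74 and 8 of 75 in chow. Of the 14 Elovl6 UMIs in HFD + L-NAME 2, 8 came from 1 cell. Foxp3-negative CD4 T cells had 265 CPM with NO2-OA, 238 and 33.2 CPM in HFD + L-NAME, and 44.3 and 12.04 CPM in chow, so there HFD + L-NAME 2 lay under chow 1. The difference between the cell kinds in this effect was 0.60 ± 0.43 (edgeR adjusted p = 1). DESeq2 gave Elovl6 a log2 fold change of 2.99 with an adjusted p of 0.0566, and the edgeR adjusted p was 0.585 without HFD + L-NAME 1, 0.149 without the NO2-OA library and 0.986 when up to 1 UMI each of Cd79a and Lyz2 was allowed.

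Focad (ENSMUSG00000038368), which encodes the adhesion-linked protein focadhesin, had 0 UMIs in both HFD + L-NAME libraries, against 29.8 and 59.0 CPM in chow, and 22.6 CPM with NO2-OA. With 3 counts over the group as the floor (6.30 CPM), its summed level in chow of 44.5 CPM makes it at least 7.06-fold lower in HFD + L-NAME (edgeR adjusted p = 0.0109). Focad lies under the mean level that the naming rule asks for, and it is given because it was 1 of 3 calls. Auts2 (ENSMUSG00000029673), a regulator of transcription first linked to neural development, stood at 0 and 5.61 CPM in HFD + L-NAME, against 80.0 and 31.3 CPM in chow, and at 13.98 CPM with NO2-OA (-4.54 ± 0.99, edgeR adjusted p = 0.0227). Of the 43 Auts2 UMIs in chow 1, 34 came from 1 cell, and 0 of 41 and 1 of 17 Treg in HFD + L-NAME and 2 of 74 and 5 of 75 Treg in chow held any. Without chow 1 the adjusted p of Auts2 was 0.834, and without chow 2 that of Focad was 0.750.

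No other gene passed the threshold. The largest of the others by p that did not overlap between groups were Gadd45g, a growth-arrest gene (2.37 ± 0.58), Cdkn1c, a cell-cycle inhibitor (3.92 ± 0.84), Eea1, an endosome protein (1.56 ± 0.41), and Hpcal1, a calcium sensor (1.67 ± 0.45), with edgeR adjusted p from 0.0971 to 0.165. Gadd45g stood at 107 and 28.1 CPM in HFD + L-NAME, against 13.0 and 14.8 CPM in chow. Of the 36 Cdkn1c UMIs in HFD + L-NAME 2, all came from 1 cell. On the other side were Sfmbt1, a chromatin reader (-3.20 ± 0.76), Themis, which tunes T-cell receptor signals (-1.58 ± 0.40), Mcph1 (-2.75 ± 0.72) and Nrgn (-1.57 ± 0.44), with edgeR adjusted p from 0.0750 to 0.200. Nrgn is abundant in platelets, and Treg platelet markers summed to 238 and 107 CPM in HFD + L-NAME, against 517 and 312 CPM in chow, and 54.9 CPM with NO2-OA (8 of 8 markers had a UMI in HFD + L-NAME 1 and both chow libraries, and 6 of 8, all but Gp1bb and Treml1, in HFD + L-NAME 2 and the NO2-OA library). The part of platelet RNA in these values was not tested.

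The gene lists held no call in this comparison. The median log2 fold change was 0.61 over 25 tested effector Treg genes, 0.40 over 26 signature genes, 0.58 over 14 suppressive genes and 0.37 over 38 interferon-stimulated genes, against -0.01 over all genes. It was -0.63 over 18 conventional and -0.36 over 16 resting genes. The effector genes with the highest mean were S100a4 (1.08 ± 0.41, edgeR adjusted p = 0.864), S100a6 (0.46 ± 0.41), Lgals1 (0.72 ± 0.38) and Rora (0.56 ± 0.44), with edgeR adjusted p of 1.00 for each of the last 3. Leaving out cells with UMIs of other lineages left no Treg of HFD + L-NAME 2 and took out 34 of 41 Treg of HFD + L-NAME 1. In that setting these 4 had the opposite sign, at -1.31 for S100a4, -1.81 for S100a6, -2.81 for Lgals1 and -1.10 for Rora. These values rest on the few remaining Treg of HFD + L-NAME 1 alone. Medians of the other lists lay between -0.10 and 0.27: NRF2 targets 0.25, interleukin-2 and STAT5 genes 0.27, receptor and immediate-early genes 0.12, homing 0.07, clock -0.03, cholesterol -0.06, lipid and PPAR -0.09 and cell cycle genes -0.10. The count of calls hung on single libraries: it was 30 without chow 1, 8 without chow 2, 10 without HFD + L-NAME 2, 2 without HFD + L-NAME 1 and 0 without the NO2-OA library.

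**Figure D5:**
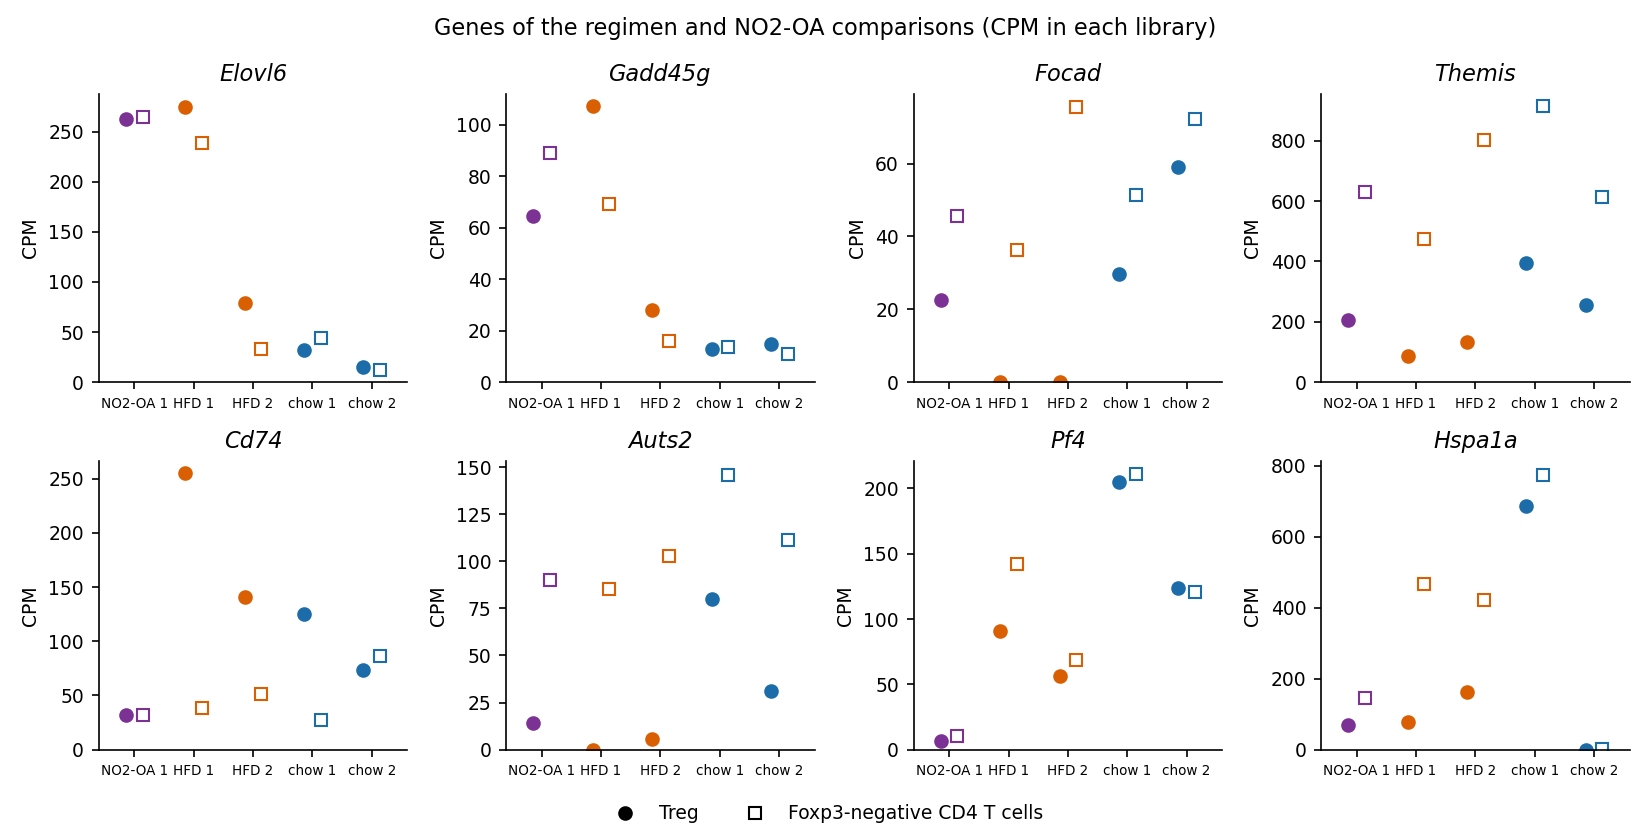
Level (CPM) in Treg (filled circles) and Foxp3-negative CD4 T cells (open squares) of each library for 8 genes of the regimen and NO2-OA comparisons. Elovl6 is high in both cell kinds of the NO2-OA library and of HFD 1, Pf4 is low in both cell kinds of the NO2-OA library, and Hspa1a is at or near 0 in both cell kinds of chow 2.

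The comparison of NO2-OA with HFD + L-NAME asks what the fatty acid added to the regimen. The single NO2-OA library was assumed to vary like the other groups. In edgeR, 2 genes were lower and 0 higher of 7557 (0.0265%), 175 had an unadjusted p under 0.05, and DESeq2 called 0 genes with 44 at an unadjusted p under 0.05. Pf4 (ENSMUSG00000029373), a platelet chemokine, stood at 6.45 CPM with NO2-OA, against 90.5 and 56.1 CPM in HFD + L-NAME (-3.53 ± 0.69, edgeR adjusted p = 0.00621), and in chow at 205 and 124 CPM. Foxp3-negative CD4 T cells of the same libraries had 10.8 CPM with NO2-OA, 142 and 68.4 CPM in HFD + L-NAME, and 211 and 121 CPM in chow. Pf4 is one of the platelet markers whose sums are given above, and these moved with it in both comparisons. Pf4 did not pass the threshold without HFD + L-NAME 1 (edgeR adjusted p = 0.268) or with equal numbers of Treg per library (edgeR adjusted p = 0.165).

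Cd74 (ENSMUSG00000024610), the invariant chain of MHC class II, stood at 32.3 CPM with NO2-OA, against 255 and 140 CPM in HFD + L-NAME (-2.67 ± 0.54, edgeR adjusted p = 0.00775), and in chow at 125 and 73.8 CPM. Of the 76 Cd74 UMIs in HFD + L-NAME 1, 59 came from 1 cell. Cells with any Cd74 UMI were 24 of 131 with NO2-OA, 12 of 41 and 10 of 17 in HFD + L-NAME, and 20 of 74 and 29 of 75 in chow. Summed B-cell markers stood at 268 CPM in Treg with NO2-OA, 181 and 303 CPM in HFD + L-NAME, and 342 and 229 CPM in chow, with Cd79a at 0 by the rule. The sums of monocyte markers are given above, beside Ccr2. The part of B-cell or monocyte RNA in the level of Cd74 was not tested. Without HFD + L-NAME 1 the edgeR adjusted p of Cd74 was 0.443, and the 1 gene called there was neither Cd74 nor Pf4. It was 1.00 with equal numbers of Treg, where 4 genes were called and neither Cd74 nor Pf4 was among them, and 1.00 (log2 fold change -1.73) when up to 1 UMI each of Cd79a and Lyz2 was allowed.

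The genes next in rank that did not overlap, none past the threshold, were Plcl1 (1.73 ± 0.44), Sfmbt1 (2.93 ± 0.83), Tnfsf8, the ligand of CD30 (1.69 ± 0.50), Pdss2 (1.91 ± 0.59) and Mcph1 (2.50 ± 0.79) on the higher side, with edgeR adjusted p from 0.247 to 0.737. On the lower side were Gng11, another platelet gene (-2.50 ± 0.60), Lgals3 (-2.53 ± 0.67) and Lmna (-1.88 ± 0.51), with edgeR adjusted p from 0.131 to 0.298. Plcl1 stood at 414 CPM with NO2-OA, against 131 and 112 CPM in HFD + L-NAME. No list held a call, and NRF2 targets, which NO2-OA is known to activate, had a median of -0.13 over 16 tested genes, against -0.02 over all genes. The effector Treg median was -0.42 and the conventional median 0.35. Both comparisons share the HFD + L-NAME libraries, so opposite signs in them are not separate evidence.

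Whether the regimen went with other changes in Treg than in Foxp3-negative CD4 T cells was tested as an interaction. In edgeR 3 genes of 9895 were called, all lower in Treg relative to the compared cells (0.0303%), 509 had an unadjusted p under 0.05, and DESeq2 called 0 genes with 129 at an unadjusted p under 0.05. Themis (ENSMUSG00000049109), a member of the conventional CD4 list, stood at 87.2 and 135 CPM in HFD + L-NAME Treg, against 396 and 256 CPM in chow Treg. In Foxp3-negative CD4 T cells it stood at 474 and 802 CPM in HFD + L-NAME, against 915 and 614 CPM in chow (interaction -1.37 ± 0.27, edgeR adjusted p = 0.0203). Themis UMIs were found in 47 of 131 Treg with NO2-OA, 8 of 41 and 5 of 17 in HFD + L-NAME, and 28 of 74 and 35 of 75 in chow. Focad stood at 36.2 and 75.5 CPM in the compared cells of HFD + L-NAME and at 51.4 and 72.3 CPM in those of chow, beside its 0 UMIs in HFD + L-NAME Treg (edgeR adjusted p = 0.0263). Leaving out any 1 library left Themis above an adjusted p of 0.05, from 0.0619 without chow 2 to 0.676 without HFD + L-NAME 2, and the count of calls ran from 0 without HFD + L-NAME 1 or the NO2-OA library to 8 without chow 2 and 5 without chow 1.

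Hspa1a (ENSMUSG00000091971), a stress-induced heat shock chaperone, was the third of these genes (-1.90 ± 0.35, edgeR adjusted p = 0.0123). It stood at 77.1 and 163 CPM in HFD + L-NAME Treg, against 687 and 0 CPM in chow Treg. In the compared cells it stood at 466 and 422 CPM in HFD + L-NAME, against 775 and 0.769 CPM in chow. Chow 2 had no Hspa1a UMI in 75 Treg and 3 in 538 Foxp3-negative CD4 T cells, so chow 1 alone carries the chow value. Without chow 1 the interaction was 1.87, of the opposite sign (edgeR adjusted p = 1). Its near-identical neighbour copy Hspa1b, which can take part of its reads, had 2 UMIs in 75 Treg and 10 in 538 compared cells of chow 2, against 588 in 74 Treg of chow 1.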

How the data were processed

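The authors deposited UMI count matrices of 33,696 genes for 5 libraries of 10x 3′ single-cell RNA sequencing, made with Cell Ranger 7.1.0 per the file headers. The submitters' processing notes name bcl2fastq, Cell Ranger and the mm39 build. UMI counts were summed per library over Treg and over Foxp3-negative CD4 T cells. Sums were tested with edgeR 4.0.16 (filterByExpr, TMM, robust quasi-likelihood fit, R 4.3.3), with Benjamini-Hochberg adjustment over all genes tested, and DESeq2 1.42.0 was an alternative. The main edgeR fit of each comparison was tested on simulated data, with a smaller spread than the group comparisons showed. DESeq2, the replicate block and the tests of shares were not tested in that way. Barcodes were scored for doublets per library with scrublet in scanpy 1.11.5. Those with the highest scores were marked, up to a share fixed beforehand at 0.8% per 1000 barcodes, and kept. The marked shares, 6.79 to 14.4% of barcodes, thus follow from the number of barcodes and are not measured doublet rates. Cells were thinned to 3000 UMIs for shares of cells with a gene. Intervals are exact Clopper-Pearson at 95%. Shares were compared by exact permutation over libraries.

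The cells, gene lists and tests were chosen with earlier results of these data known. Named genes were the 12 in each direction with the smallest p among called genes with a mean of at least 4 log2 CPM and 1 direction in all 5 libraries. Between groups they were genes with a mean of at least 5 log2 CPM and no overlap between the libraries compared, filled to 5 in each direction where fewer than 3 passed. From each list they were up to 6 called members, filled to 4 by mean level. The group comparisons shared 1 fit of all 5 libraries. Alternatives covered filters, scaling, the rule's own demands, the compared cells, and each library left out. No sequences or coordinates are reported. A few genes that these rules name are not reported here.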

Additional observations from a re-analysis of the deposited data

Results flagged for a closer look

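Themis, Focad and Hspa1a drew attention because their difference between HFD + L-NAME and chow was not the same in Treg as in Foxp3-negative CD4 T cells, by edgeR's test of the interaction. The interaction was -1.37 for Themis (adjusted p = 0.0203), which was lower in HFD + L-NAME than in chow in Treg of both replicates (-2.17 and -0.92) and not in both of the compared cells (-0.95 and 0.38). It was -9.52 for Focad (adjusted p = 0.0263), a fitted value that rests on 0 UMIs in HFD + L-NAME Treg and is no bound on the size. It was -1.90 for Hspa1a (adjusted p = 0.0123), and chow 2 held almost no UMI of this gene in either cell kind. DESeq2 called none of them.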

How the results depend on the processing

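The log2 ratio of the Treg share of filtered cells stayed negative with each library left out (-1.35 to -0.64), while that of T cells ran from -0.57 to 0.82 and that of CD4-type T cells from -0.51 to 0.45. The CD4-type ratio was 0.12 with at least 2 companion genes, 0.014 with up to 1 UMI of Cd79a and Lyz2 allowed and 0.025 after thinning. Calls of Treg against Foxp3-negative CD4 T cells numbered 119 with cells of other-lineage UMIs left out, 746 with matched UMIs and 658 without the library block, and 976 to 1463 with each library left out. Calls of HFD + L-NAME against chow numbered 7 with DESeq2 size factors, 0 with DESeq2, 8 without a low-count filter, 8 without doublets, 1 with at least 2 companion genes, 1 with up to 1 UMI allowed, 17 without other-lineage cells, 0 in the 2 groups alone, 5 with equal numbers of Treg, and 0 to 30 with each library left out. Calls of NO2-OA against HFD + L-NAME numbered 0 with DESeq2, 5 without doublets, 5 without other-lineage cells, 4 with equal numbers (neither Pf4 nor Cd74), and 1 to 5 with each library left out; leaving out the NO2-OA library was not run, since no contrast is left. Interaction calls numbered 0 with DESeq2, 6 without a filter, 5 with mitochondrial share under 5%, 0 without doublets, 0 with at least 2 companion genes, 0 with up to 1 UMI allowed, 5 without other-lineage cells (none of Themis, Focad and Hspa1a), and 0 to 8 with each library left out. Calls by Ikzf2 numbered 160 without a filter, 173 with Foxp3 alone, 139 with up to 1 UMI allowed, 0 without other-lineage cells (467 genes tested), and 23 to 97 with each library left out. The fit with the replicate number as a block gave 0 calls in both group comparisons, so Elovl6, Focad, Auts2, Pf4 and Cd74 were not called there, and left the log2 ratios of the shares at -0.99, 0.12 and -0.03. Deviations of same-numbered libraries had a correlation of 0.03 over 7557 genes and -0.07 over 3054, and the main fits did not take the numbers as pairs. With so few libraries these correlations cannot exclude an effect of the sets. The Treg share of T cells was 1.57%, 1.84% and 2.54% in the libraries of replicate 1, and 4.13% and 4.19% in those of replicate 2. Signs turned without other-lineage cells for Bach2 (0.052) and Lef1 (0.12) by Ikzf2 and for Lgals1 (-2.81), Rora (-1.10), S100a4 (-1.31) and S100a6 (-1.81) in HFD + L-NAME against chow, for Rora without chow 2 (-0.13; 1.91 without chow 1), and for Hspa1a without chow 1 (1.87; -2.52 without HFD + L-NAME 2). The causes were not tested. Allowing up to 1 UMI and the Icos comparison were chosen after seeing the data. HFD + L-NAME 2 held 17 Treg.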

Other observations

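Some factors, receptors and cytokines of helper T-cell lineages, chosen after their values were seen, are given here. Tbx21, the factor of type 1 helper cells, had a UMI in 1.48% of Treg, against 6.26% of Foxp3-negative CD4 T cells (log2 fold change of summed levels -2.73 ± 0.43, edgeR adjusted p = 1.05e-04). The chemokine receptor Ccr6 had a UMI in 7.99% of Treg, against 0.470% of the compared cells. Gata3, the factor of type 2 helper cells, had a UMI in 36.1% of Treg, against 30.6% (0.07 ± 0.16, edgeR adjusted p = 0.832). Il10, a suppressive cytokine, had a UMI in 5.62% of Treg, against 3.47%, and Cd40lg, the ligand that helps B cells, in 8.58%, against 19.2% (-1.52 ± 0.26, edgeR adjusted p = 2.03e-04). Median depth was 6304 UMIs in Treg and 6063 in the compared cells. After thinning to 3000 UMIs, Tbx21 stood at 0.310% against 3.96% and Ccr6 at 4.33% against 0.244%.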
